A study of Homo sapiens with 12 samples.

Results

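The 10 genes described here are targets of WNT-beta-catenin signalling (SP5, AXIN2, TCF7, ZNRF3, LEF1, NKD1, RNF43, LGR5, NOTUM and DKK1), taken by gene name from a table of 62753 genes. They were measured by RNA-seq in 12 libraries of H9, a human embryonic stem cell line, in 4 groups of 3 libraries. The siOGA group carried a knockdown of OGA, the enzyme that removes O-GlcNAc, a sugar attached to nuclear and cytoplasmic proteins. The siP300+OGA group is named for the EP300 siRNA together with OGA, and its genotype label gives OGA overexpression. The siP300 group carried a knockdown of EP300, a histone acetyltransferase, and the siNC group is the wild-type control siRNA. All 4 groups were grown in the naive medium PXGL on a layer of mouse embryonic fibroblasts, although the sample names of siP300+OGA do not repeat the name of the medium. PXGL holds the MEK inhibitor PD0325901, the tankyrase inhibitor XAV939, the protein kinase C inhibitor Gö 6983 and human LIF. The sources used here do not give the siRNA sequences, the form in which OGA was supplied or the time after transfection.

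In canonical WNT signalling, WNT ligands bind Frizzled receptors and LRP5 or LRP6, and this stops a complex built on AXIN, APC, GSK3 and casein kinase 1 from marking beta-catenin for destruction. Beta-catenin then enters the nucleus and activates genes bound by factors of the TCF/LEF family. Tankyrases promote the loss of AXIN protein, so a tankyrase inhibitor stabilises AXIN and dampens beta-catenin signalling, which is its purpose in naive culture. Many targets feed back on the pathway: AXIN2, ZNRF3, RNF43, NKD1, NOTUM and DKK1 restrain it, LGR5 binds the R-spondins that amplify it, and SP5, TCF7 and LEF1 are transcription factors.

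The promoters of SP5 and DKK1 are shown because they held a match to the TCF/LEF strings searched here, and the first of TCF7 because it held none. A table of RefSeq promoters (build GRCh38.p14, 250 bases before to 50 after the start site) held entries for 5 members, with 7 promoters: SP5, LEF1, TCF7, DKK1 and RNF43. The motifs searched on both strands were CTTTGAT and CTTTGAA, and capitals mark a match in either direction. Other forms of the TCF/LEF motif were not searched, so a promoter with no match may still hold one of them. Of all 35116 promoters in the table, 2409 (6.86%) held at least 1 match and 9 (0.0256%) held at least 3. SP5 lies on chromosome 2 and its window is chr2:170715087-170715386, plus strand. DKK1 lies on chromosome 10 (chr10:52314031-52314330, plus strand) and the first TCF7 promoter on chromosome 5 (chr5:134115363-134115662, plus strand).
SP5: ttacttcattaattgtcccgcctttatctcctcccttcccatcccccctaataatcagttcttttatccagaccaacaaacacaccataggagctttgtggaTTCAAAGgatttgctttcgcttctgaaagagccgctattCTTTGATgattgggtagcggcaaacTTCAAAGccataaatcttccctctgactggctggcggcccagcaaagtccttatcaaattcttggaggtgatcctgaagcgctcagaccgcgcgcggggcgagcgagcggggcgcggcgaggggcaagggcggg
DKK1: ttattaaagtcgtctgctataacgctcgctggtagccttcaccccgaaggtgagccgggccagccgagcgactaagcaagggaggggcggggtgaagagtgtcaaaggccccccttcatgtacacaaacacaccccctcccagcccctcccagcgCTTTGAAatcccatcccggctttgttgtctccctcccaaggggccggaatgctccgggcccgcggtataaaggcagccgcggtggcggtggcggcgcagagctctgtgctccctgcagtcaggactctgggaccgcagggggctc
TCF7: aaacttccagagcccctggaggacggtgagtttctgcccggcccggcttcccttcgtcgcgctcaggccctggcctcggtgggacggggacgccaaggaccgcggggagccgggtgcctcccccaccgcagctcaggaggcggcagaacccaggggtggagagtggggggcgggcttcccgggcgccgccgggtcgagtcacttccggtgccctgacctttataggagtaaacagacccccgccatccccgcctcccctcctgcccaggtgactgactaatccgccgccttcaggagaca
SP5 had 3 matches, which began 148, 109 and 84 bases before its start site, and DKK1 had 1, which began 95 bases before its own. The LEF1 promoter, both TCF7 promoters and both RNF43 promoters had 0. AXIN2, ZNRF3, NKD1, LGR5 and NOTUM had no entry. A match is a string of letters and not a measured binding site.

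The libraries held 16238225 to 18714572 reads assigned to genes, as recovered from the steps in the FPKM values. The targeted transcripts were checked first. OGA measured 8.10 ± 0.771 FPKM in siOGA, 43.8 ± 0.741 in siP300+OGA, 39.8 ± 1.97 in siP300 and 40.55 ± 0.431 in siNC (SD, n = 3 each). OGA was therefore low in siOGA, but the libraries labelled siP300+OGA differed from siP300 by a log2 difference of 0.13 that did not pass (adjusted p = 0.0636). It passed with limma-voom on reads (0.14, adjusted p = 0.0066) and with regional medians removed (0.34, adjusted p = 0.000693). EP300 measured 15.4 FPKM in siP300+OGA and 13.3 FPKM in siP300, against 23.5 FPKM in siOGA and 23.2 FPKM in siNC. EP300 was called higher in siP300+OGA than in siP300 (0.20, adjusted p = 0.000182), but not with regional medians removed (0.09, adjusted p = 0.131). The part of this difference in the values of the targets was not tested. POU5F1, the defining pluripotency factor, averaged 278 to 534 FPKM by group. Of 3 core pluripotency genes, 3 fell in siP300 against siNC: NANOG (log2 difference -1.74), POU5F1 (-0.62) and SOX2 (-0.46). In siOGA against siNC, POU5F1 (0.31) and SOX2 (0.20) rose and NANOG fell (-0.35). In siP300+OGA against siNC, NANOG (-1.21) and SOX2 (-0.13) fell and POU5F1 did not pass (-0.01). There 30.8% of all tested genes were called higher and 30.2% lower. Of 5 tested naive markers, 4 fell in siOGA and 5 fell in siP300 against siNC, and all 5 tested primed markers rose in both. Of all tested genes, 34.0% were called higher and 32.9% lower in siOGA against siNC, and 30.2% and 35.7% in siP300 against siNC. The summed level of the 6 naive markers was 755 to 813 FPKM in siOGA, 631 to 653 in siP300+OGA, 468 to 469 in siP300 and 1197 to 1245 in siNC. The labels do not say whether libraries of a group came from separate cultures, so p-values measure the spread between these libraries, which may be technical.

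Expression of the 10 targets fell into 3 tiers. AXIN2, ZNRF3, TCF7 and SP5 passed the minimum of a mean of 1 FPKM over the 12 libraries and were tested with limma on log2(FPKM + 1) among 13166 genes. LEF1, NKD1, RNF43 and NOTUM lay under it, and their tests are from limma-voom on recovered reads, among 19308 genes, unless another fit is named. LGR5 and DKK1 were close to 0. SP5 passed the minimum only through siP300+OGA, so its test there is not independent of the filter. FPKM is a level per length of the gene, and a bulk level cannot tell apart fewer cells with the transcript and less transcript per cell.

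AXIN2 (chr17:65528563-65561648, minus strand, build GRCh38 here and for the genes that follow) is the scaffold of the destruction complex that is itself induced by beta-catenin, and it had the highest level per length of the 10. It measured 11.1, 11.2 and 9.75 FPKM in siOGA, 16.9, 14.9 and 15.9 FPKM in siP300+OGA, 8.00, 7.25 and 7.53 FPKM in siP300, and 12.7, 13.0 and 11.96 FPKM in siNC. The 4 groups did not overlap: siP300+OGA was highest, then siNC, siOGA and siP300. In siOGA its mean was 85.3% of siNC, a log2 difference of -0.21 (SE 0.061, adjusted p = 0.00945). In siP300 it was 60.6% of siNC, a log2 difference of -0.65 (adjusted p = 2.73e-06). AXIN2 was higher in siP300+OGA than in siP300 by a log2 difference of 0.98 (adjusted p = 4.27e-07) and higher than in siNC by 0.32 (adjusted p = 0.000852). The siOGA difference was the smallest of these, and it did not pass with the median shift of each gene's 20 Mb region removed (-0.15, adjusted p = 0.0545).

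TCF7 (chr5:134114681-134151865, plus strand) encodes a TCF/LEF factor that is both an effector and a target of the pathway. It measured 2.31, 2.48 and 2.38 FPKM in siOGA, 6.29, 6.48 and 6.52 FPKM in siP300+OGA, 3.40, 3.11 and 3.31 FPKM in siP300, and 4.79, 4.84 and 4.54 FPKM in siNC. Its groups did not overlap, and siOGA was the lowest, unlike for AXIN2. The mean in siOGA was 50.5% of siNC, a log2 difference of -0.76 (SE 0.0434, adjusted p = 7.26e-08). The mean in siP300 was 69.3% of siNC (-0.42, adjusted p = 6.25e-06), and TCF7 was lower in siOGA than in siP300 (-0.34, adjusted p = 3.09e-05). In siP300+OGA it was higher than in siP300 by 0.80 (adjusted p = 1.51e-07) and higher than in siNC by 0.38 (adjusted p = 2.05e-05). The last 2931 bases of the TCF7 span overlap SKP1 on the opposite strand, and the sources used here do not say which strand was counted. SKP1 averaged 1.44 FPKM in siOGA, 0.804 FPKM in siP300+OGA, 0.766 FPKM in siP300 and 0.904 FPKM in siNC, and its part in the TCF7 values was not tested.

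ZNRF3 (chr22:28883572-29057488, plus strand) encodes a membrane ubiquitin ligase that removes Frizzled receptors from the cell surface. It measured 8.01, 7.87 and 6.52 FPKM in siOGA, 7.65, 8.20 and 7.13 FPKM in siP300+OGA, 5.20, 5.05 and 5.32 FPKM in siP300, and 8.61, 8.74 and 8.06 FPKM in siNC. The siP300 libraries lay below all 9 others, while siOGA and siP300+OGA overlapped each other. ZNRF3 fell in siP300 to 61.3% of siNC, a log2 difference of -0.61 (SE 0.0700, adjusted p = 1.42e-05). It was higher in siP300+OGA than in siP300 by 0.48 (adjusted p = 0.000203), and its level there did not pass against siNC (-0.13, 95% confidence interval -0.28 to 0.02, adjusted p = 0.129). In siOGA the difference from siNC was -0.17 (interval -0.32 to -0.01, adjusted p = 0.0554) although each siOGA library lay below each siNC library. That value passed with limma-voom on reads (-0.19, adjusted p = 0.0187), with the replicate number as a block (adjusted p = 0.0339), and without siOGA replicate 1 (adjusted p = 0.0297), siOGA replicate 2 (adjusted p = 0.0433) or siNC replicate 3 (adjusted p = 0.0498). It also passed with regional medians removed (-0.14, adjusted p = 0.0482) and with quantile normalization (adjusted p = 0.0439). The comparison of siP300+OGA with siNC passed without siOGA replicate 3 (adjusted p = 0.0398), through the shared estimate of the spread.

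SP5 (chr2:170715337-170718078, plus strand) encodes a zinc-finger factor of the SP family, a direct WNT target whose promoter with 3 TCF/LEF strings is printed above. It measured 0.343, 0.737 and 0.606 FPKM in siOGA, 2.01, 2.14 and 2.23 FPKM in siP300+OGA, 0.4998, 0.432 and 0.343 FPKM in siP300, and 1.23, 0.703 and 1.26 FPKM in siNC, from 11 to 82 reads a library. The siP300+OGA libraries lay above all others, siP300 lay below siNC, and siOGA overlapped both siP300 and siNC. SP5 was higher in siP300+OGA than in siP300 by 1.14 on the log2(FPKM + 1) scale (SE 0.126, adjusted p = 2.87e-05), and by 2.30 with limma-voom on reads (adjusted p = 6.3e-07), since the pseudocount of 1 compresses low genes. Against siNC, its mean was 199.6% in siP300+OGA (0.61, adjusted p = 0.00145) and 39.8% in siP300 (-0.53, adjusted p = 0.00327). In siOGA the mean was 52.7% of siNC (-0.40, adjusted p = 0.0153). That call was lost without siOGA replicate 1 (adjusted p = 0.0635), siNC replicate 1 (adjusted p = 0.0603) or siNC replicate 3 (adjusted p = 0.0618). The levels in siOGA and siP300 did not pass as different (0.13, 95% interval -0.15 to 0.40, adjusted p = 0.381), except with quantile normalization (0.34, adjusted p = 0.0306).

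**Figure D1:**
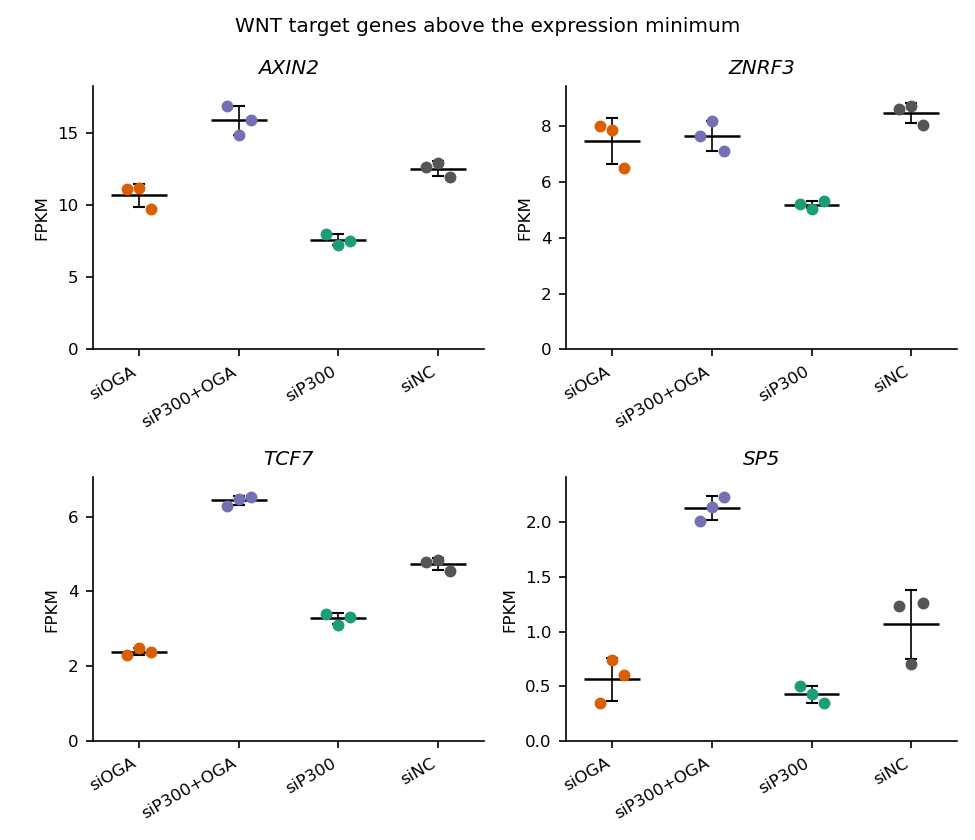
FPKM of AXIN2, ZNRF3, TCF7 and SP5 (y axis, linear from 0) in the siOGA, siP300+OGA, siP300 and siNC groups (x axis). Points are the 3 libraries of a group, the horizontal line is their mean and the bar is ± SD; for AXIN2, TCF7 and SP5 the siP300+OGA libraries lie above all others, while for ZNRF3 siP300 lies below all others.

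Across the 4 tested targets, siP300+OGA against siP300 was the comparison in which each one rose, with a median log2 difference of 0.89 against 0.03 over all tested genes. There 4 of 4 were called higher, where 27.0% of all 13166 genes were called higher and 21.2% lower. SP5 is 1 of these 4 and passed the minimum only through siP300+OGA. Its place in this count and median is therefore not independent of the filter. The same holds for siP300+OGA against siNC below. In siP300 against siNC 4 of 4 fell (median -0.57, all genes -0.04), where 30.2% of genes were called higher and 35.7% lower. In siOGA against siNC 3 of 4 fell (median -0.31, all genes 0.01), where 34.0% were called higher and 32.9% lower. In siP300+OGA against siNC 3 of 4 rose (median 0.35, all genes 0.00), where 30.8% were called higher and 30.2% lower. Directly compared, AXIN2 and ZNRF3 were higher in siOGA than in siP300, by log2 differences of 0.44 (adjusted p = 5.16e-05) and 0.45 (adjusted p = 0.00014), and TCF7 was lower, where 39.3% of genes were called higher and 34.8% lower. These comparisons share libraries, the 4 genes were kept because they passed a level filter, and a large share of all genes changed, so the counts describe these 4 genes only.

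With limma-voom on reads, 8 members were tested, and the direction differed among them. In siOGA against siNC 3 were called higher and 5 lower, where 31.3% of 19308 genes were called higher and 30.0% lower. In siP300 against siNC 2 were called higher and 5 lower, where 31.3% of genes were called higher and 30.2% lower. In siP300+OGA against siP300 5 were called higher and 1 lower, where 21.3% of genes were called higher and 21.5% lower. In siP300+OGA against siNC 5 were called higher and 0 lower, where 28.4% of genes were called higher and 26.3% lower. In siOGA against siP300 5 were called higher and 2 lower, where 33.4% of genes were called higher and 35.3% lower. Only RNF43 was called higher in both knockdowns. NOTUM was the 1 member called lower in siP300+OGA against siP300, and it was called higher in siP300 against siNC.

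**Figure D2:**
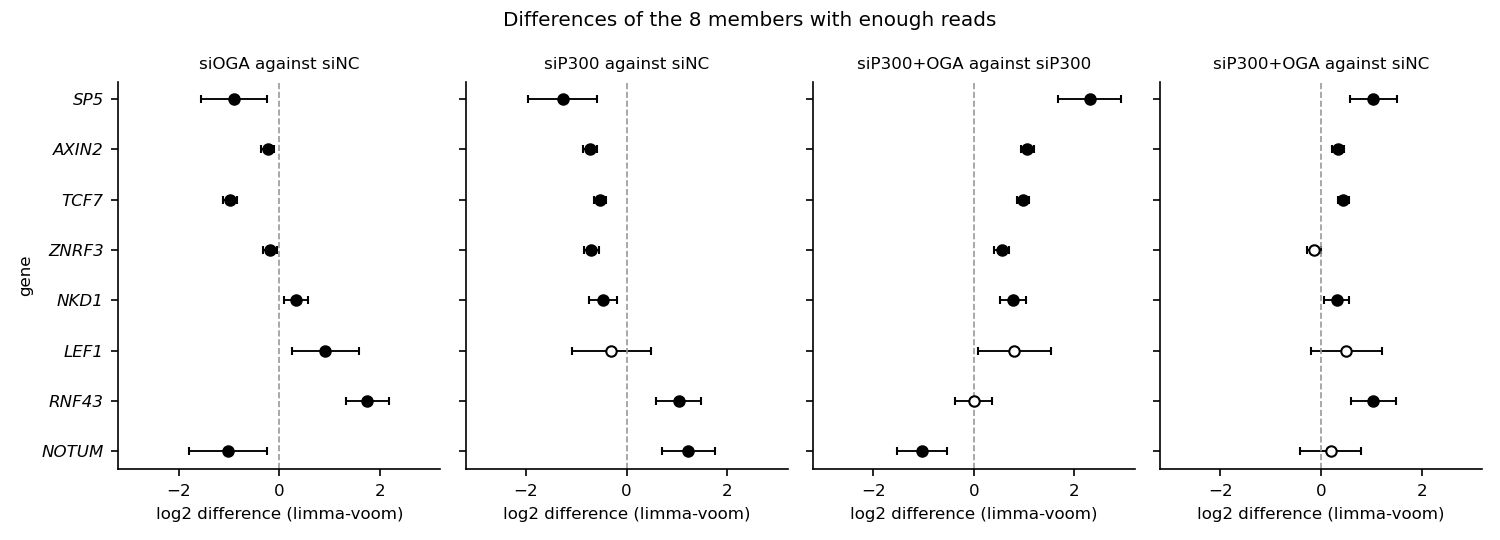
Log2 differences by limma-voom (x axis) for 8 members (y axis) in 4 comparisons, with 95% confidence intervals; filled points have an adjusted p below 0.05. SP5, AXIN2, TCF7, ZNRF3 and NKD1 lie below 0 in siP300 against siNC and above 0 in siP300+OGA against siP300, while RNF43 and NOTUM lie above 0 in siP300 against siNC.

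RNF43 (chr17:58353676-58417595, minus strand) encodes the ubiquitin ligase related to ZNRF3 that also clears Frizzled from the surface. It measured 0.920, 1.22 and 1.25 FPKM in siOGA, 0.743, 0.665 and 0.660 FPKM in siP300+OGA, 0.606, 0.654 and 0.821 FPKM in siP300, and 0.387, 0.301 and 0.313 FPKM in siNC. All 9 libraries of the other groups lay above siNC, siOGA lay highest, and siP300+OGA overlapped siP300. The mean was 338% of siNC in siOGA (limma-voom log2 difference 1.75, adjusted p = 4.05e-08), 207% in siP300+OGA (1.04, adjusted p = 0.000247) and 208% in siP300 (1.04, adjusted p = 0.000175). The difference between siP300+OGA and siP300 was 0.00 (95% interval -0.36 to 0.37, adjusted p = 0.994). In the same limma-voom fit its relative ZNRF3 was called lower in siOGA (-0.19, adjusted p = 0.0187) and in siP300 (-0.70, adjusted p = 2.65e-09), the opposite direction to RNF43 in both, although ZNRF3 in siOGA did not pass with limma on FPKM (adjusted p = 0.0554).

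NOTUM (chr17:81952507-81961840, minus strand) encodes a secreted enzyme that removes the lipid from WNT ligands and so inactivates them. It measured 0.644, 0.231 and 0.216 FPKM in siOGA, 0.706, 0.570 and 1.01 FPKM in siP300+OGA, 1.58, 1.25 and 1.80 FPKM in siP300, and 0.655, 0.771 and 0.539 FPKM in siNC. These values rest on 11 to 96 reads a library, and those of siOGA on 11 to 29. The siP300 libraries lay above all others, and siOGA replicate 1 lay among the siNC libraries, far from the other two of its group. NOTUM rose in siP300 to 236% of siNC (limma-voom 1.23, adjusted p = 0.000145) and was lower in siP300+OGA than in siP300 (-1.03, adjusted p = 0.00113). Its level in siP300+OGA did not pass against siNC (0.20, 95% interval -0.41 to 0.80, adjusted p = 0.595). In siOGA it was 55.5% of siNC (-1.03, adjusted p = 0.0203), a call lost without siOGA replicate 2 (adjusted p = 0.0912), siOGA replicate 3 (adjusted p = 0.123) or siNC replicate 2 (adjusted p = 0.0663), and with limma on FPKM at a minimum of 0.1 (adjusted p = 0.113).

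NKD1 (chr16:50548396-50649249, plus strand) encodes an inhibitor that acts on Dishevelled. It measured 0.671, 0.624 and 0.523 FPKM in siOGA, 0.579, 0.612 and 0.589 FPKM in siP300+OGA, 0.328, 0.377 and 0.331 FPKM in siP300, and 0.480, 0.495 and 0.456 FPKM in siNC, from 105 to 181 reads a library. Libraries of siOGA and siP300+OGA overlapped each other and lay above siNC, and siP300 lay below siNC. The gain of siP300+OGA over siP300 was 0.78 by limma-voom (adjusted p = 1.53e-05). In siP300 NKD1 fell by 0.47 against siNC (adjusted p = 0.00367). Its differences from siNC were 0.33 in siOGA (adjusted p = 0.0191) and 0.31 in siP300+OGA (adjusted p = 0.0279). The siOGA call was lost without siOGA replicate 1 (adjusted p = 0.0967), siOGA replicate 2 (adjusted p = 0.059) or siNC replicate 3 (adjusted p = 0.0595). The siP300+OGA call was lost without its replicate 2 (adjusted p = 0.0717) or 3 (adjusted p = 0.0507), or without siNC replicate 1 (adjusted p = 0.0563) or 3 (adjusted p = 0.0811). With limma on FPKM at a minimum of 0.1, none of the 3 differences from siNC passed (adjusted p = 0.106 in siOGA, 0.152 in siP300+OGA and 0.0728 in siP300).

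LEF1 (chr4:108047545-108168956, minus strand) encodes the TCF/LEF factor best known from lymphoid cells and was low throughout. It measured 0.326, 0.342 and 0.245 FPKM in siOGA, 0.219, 0.232 and 0.221 FPKM in siP300+OGA, 0.126, 0.157 and 0.102 FPKM in siP300, and 0.203, 0.115 and 0.163 FPKM in siNC, from 10 to 30 reads a library. The siOGA libraries were the highest of the 4 groups, and siP300 and siNC overlapped. By limma-voom LEF1 was higher in siOGA than in siNC (0.91, adjusted p = 0.0168) and than in siP300 (1.22, adjusted p = 0.00268), the opposite direction to TCF7 in both. The siOGA call against siNC was lost without siOGA replicate 2 (adjusted p = 0.0553) or siNC replicate 2 (adjusted p = 0.0928). Differences of siP300+OGA from siP300 (0.81, adjusted p = 0.0701) and from siNC (0.50, adjusted p = 0.217) did not pass, and neither did siP300 against siNC (-0.30, adjusted p = 0.505).

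LGR5 (chr12:71439798-71586310, plus strand), the R-spondin receptor that marks intestinal stem cells, had 1, 3 and 0 reads in siOGA, 0, 0 and 1 in siP300+OGA, 5, 1 and 1 in siP300, and 0, 1 and 1 in siNC. DKK1 (chr10:52314281-52318042, plus strand), a secreted inhibitor that binds LRP5 and LRP6, had 0, 2 and 0 reads in siOGA, 0, 1 and 0 in siP300+OGA, 1, 2 and 0 in siP300, and 0 in each siNC library. No group of either gene stood apart at this depth, and neither was tested. The DKK1 promoter held a TCF/LEF string all the same.

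**Figure D3:**
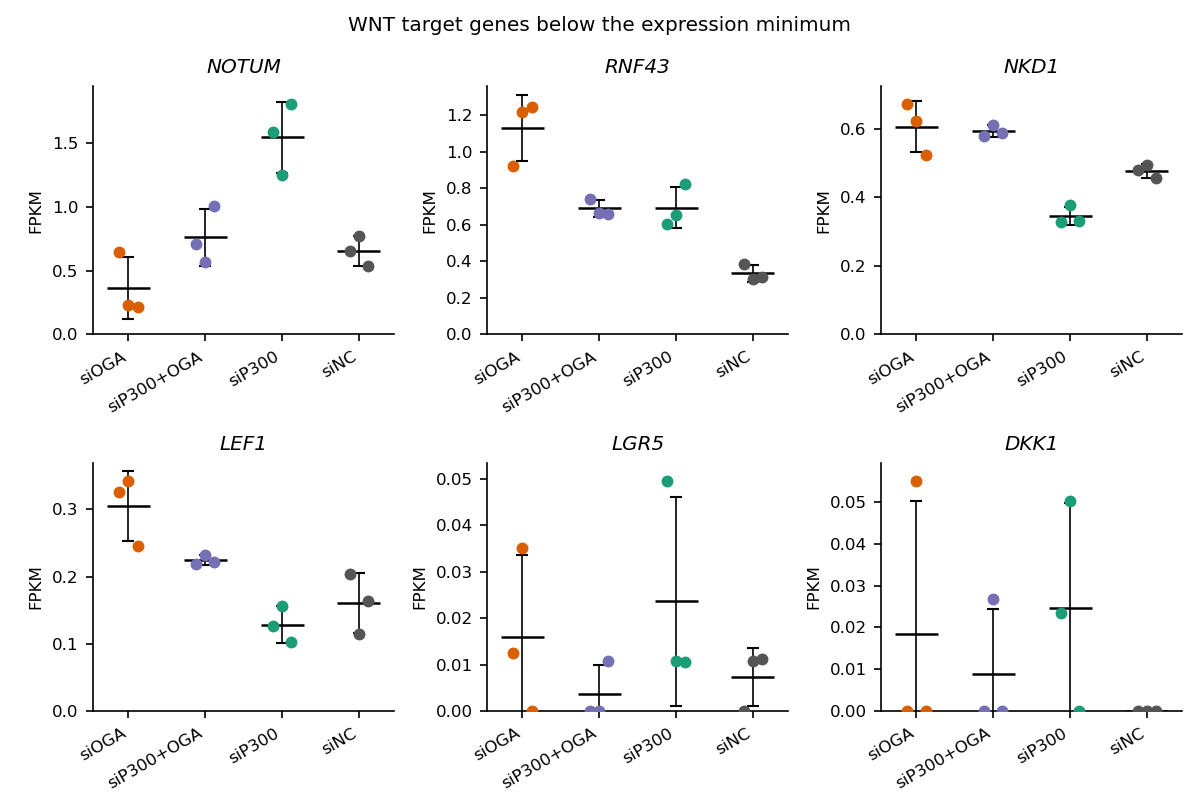
FPKM of the 6 members under the minimum (y axis, linear from 0, scaled to each gene) in the siOGA, siP300+OGA, siP300 and siNC groups (x axis). Points are libraries, the horizontal line is the mean of 3 and the bar is ± SD, not drawn below 0; RNF43 is highest in siOGA, NOTUM in siP300, and LGR5 and DKK1 stay below 0.06 FPKM in every library.

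Over the 12 libraries, the Pearson correlation of log2(FPKM + 1) between the 4 tested targets was 0.88 for TCF7 with SP5, 0.86 for AXIN2 with SP5, 0.80 for ZNRF3 with AXIN2, 0.73 for TCF7 with AXIN2, 0.50 for ZNRF3 with SP5 and 0.37 for ZNRF3 with TCF7. The libraries fall into 4 groups, so these values describe group means more than single libraries. Among 11741 genes compared, the 2 most like AXIN2 were MYCN (0.981) and POLD2 (0.974). Those most like TCF7 were FTSJ3 (0.992) and ZFP57 (0.991), those most like ZNRF3 were TCOF1 (0.975) and RRP9 (0.973), and those most like SP5 were ODC1 (0.976) and GTF2IRD2P1 (0.962). None of the 8 is a member of the target list or of the pathway lists.

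Of 94 other pathway genes, 58 were tested, and as a whole they moved in both directions. In siOGA against siNC 27 rose and 21 fell (median 0.04, all genes 0.01), in siP300 against siNC 27 rose and 21 fell (median 0.09, all genes -0.04), in siP300+OGA against siP300 17 rose and 15 fell (median 0.05, all genes 0.03), and in siP300+OGA against siNC 27 rose and 20 fell (median 0.09, all genes 0.00). Over all 13166 tested genes, 34.0% were called higher and 32.9% lower in the first of these comparisons, and 30.2% and 35.7% in the second. The shares were 27.0% and 21.2% in the third, and 30.8% and 30.2% in the fourth. Of 19 WNT ligands 6 were tested, to which the same shares of all genes apply. Of these 6, 5 fell and 0 rose in siOGA against siNC, 2 rose and 2 fell in siP300 against siNC, 3 rose and 2 fell in siP300+OGA against siP300, and 4 rose and 2 fell in siP300+OGA against siNC. The count for siOGA leaves out ligands under the minimum, such as WNT5A, a ligand mainly of non-canonical signalling, named here after its values were seen. WNT5A measured 0.470, 0.650 and 0.535 FPKM in siOGA, 0.164, 0.274 and 0.150 in siP300+OGA, 0.391, 0.360 and 0.298 in siP300, and 0.0305, 0.0784 and 0.0651 in siNC. Its siOGA libraries were therefore the highest, and its siNC libraries the lowest, of the 4 groups.

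WNT3 and WNT8A, ligands of the canonical pathway, were low in siOGA and highest in siP300+OGA. WNT3 measured 0.516, 0.613 and 0.572 FPKM in siOGA, 4.23, 4.24 and 3.68 in siP300+OGA, 2.34, 1.94 and 2.63 in siP300, and 2.36, 2.09 and 2.22 in siNC. WNT8A measured 0.357, 0.338 and 0.115 FPKM in siOGA, 5.81, 4.17 and 4.82 in siP300+OGA, 2.13, 1.97 and 1.92 in siP300, and 0.794, 0.676 and 0.906 in siNC. Both fell in siOGA against siNC, WNT3 by 1.04 (adjusted p = 7.43e-07) and WNT8A by 0.50 (adjusted p = 0.00183). Both were higher in siP300+OGA than in siP300, by 0.62 for WNT3 (adjusted p = 0.000104) and 0.97 for WNT8A (adjusted p = 3.22e-05). In siP300 against siNC they parted: WNT8A rose (0.75, adjusted p = 9.89e-05), while WNT3 did not pass (0.03, adjusted p = 0.773). WNT9A averaged 1.48 FPKM in siOGA, 3.54 in siP300+OGA, 4.80 in siP300 and 4.79 in siNC. It fell in siOGA (-1.23, adjusted p = 6.57e-08), and WNT6 rose in siP300 (1.48, adjusted p = 4.56e-06). WNT6 passed the minimum only through siP300, where it measured 2.89, 3.38 and 2.90 FPKM. Its tests with that group, and its place in the ligand counts there, are not independent of the filter. WNT10B fell in siOGA (-0.39, adjusted p = 0.000643) and in siP300 (-0.25, adjusted p = 0.00927).

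Of 17 genes of the Dishevelled, destruction complex and tankyrase list, 16 were tested. In siOGA against siNC 8 rose and 4 fell, and in siP300 against siNC 8 rose and 5 fell. Compared with siP300, 1 was higher and 4 were lower in siP300+OGA. Over all tested genes, the shares called higher and lower were 34.0% and 32.9% in the first comparison. They were 30.2% and 35.7% in the second and 27.0% and 21.2% in the third. TNKS and TNKS2 are the tankyrases, the enzymes that XAV939 in the medium inhibits. TNKS2 measured 33.0, 34.2 and 37.1 FPKM in siOGA, 21.4, 21.3 and 22.7 in siP300+OGA, 31.8, 33.0 and 33.4 in siP300, and 21.0, 20.5 and 21.9 in siNC. TNKS averaged 9.70 ± 0.426 FPKM in siOGA, 5.75 ± 0.222 in siP300+OGA, 7.98 ± 0.426 in siP300 and 6.05 ± 0.0152 in siNC (SD, n = 3 each). Both rose in siOGA and in siP300 against siNC, TNKS2 by 0.69 (adjusted p = 2e-07) and 0.61 (adjusted p = 4.68e-07), and TNKS by 0.60 (adjusted p = 5.82e-07) and 0.35 (adjusted p = 4.14e-05). Both were lower in siP300+OGA than in siP300, with log2 differences of -0.56 for TNKS2 (adjusted p = 2.97e-06) and -0.41 for TNKS (adjusted p = 2.83e-05). These are transcript levels, and neither the inhibited activity nor AXIN protein was measured.

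The scaffold AXIN1, which unlike AXIN2 is not a WNT target, rose in siOGA (0.24, adjusted p = 0.00849) and averaged 14.3 FPKM there, 12.2 in siP300+OGA, 11.4 in siP300 and 11.9 in siNC. APC, the scaffold lost in colorectal cancer, averaged 0.753 FPKM in siOGA, 3.01 in siP300+OGA, 3.80 in siP300 and 2.05 in siNC. It fell in siOGA (-0.80, adjusted p = 9.01e-06) and rose in siP300 (0.65, adjusted p = 4.16e-05). AMER1, an APC-binding adaptor, fell in siOGA to 1.52 FPKM, against 5.15 in siNC (-1.29, adjusted p = 5.92e-09). GSK3B, the kinase that phosphorylates beta-catenin, rose in siOGA (0.43, adjusted p = 4.98e-05) and in siP300 (0.64, adjusted p = 1.85e-06). CSNK1E, a casein kinase, rose in siOGA (0.73, adjusted p = 1.93e-06) and fell in siP300 (-0.48, adjusted p = 5.03e-05), and DVL3, a Dishevelled, rose in siP300 (0.67, adjusted p = 6.95e-08).

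In the nuclear arm, 13 of 14 genes were tested. Of these, 9 rose and 3 fell in siOGA against siNC, and 8 rose and 3 fell in siP300 against siNC. Compared with siP300, 3 were higher and 6 lower in siP300+OGA. Over all tested genes, the shares called higher and lower were 34.0% and 32.9% in the first comparison. They were 30.2% and 35.7% in the second and 27.0% and 21.2% in the third. CTNNB1, the beta-catenin gene, measured 43.5, 44.7 and 46.0 FPKM in siOGA, 51.2, 50.9 and 50.5 in siP300+OGA, 41.3, 43.5 and 43.3 in siP300, and 43.0, 43.4 and 43.4 in siNC. It was higher in siP300+OGA than in siNC (0.23, adjusted p = 4.07e-05) and than in siP300 (0.25, adjusted p = 4.2e-05), the last call lost with regional medians removed (0.06, adjusted p = 0.135). It did not pass in siOGA (0.05, adjusted p = 0.185) or in siP300 against siNC (-0.02, adjusted p = 0.592). The sign of the siP300 value depended on the scaling: it was 0.10 with quantile normalization (adjusted p = 0.00908) and 0.19 with regional medians removed (adjusted p = 0.000141).

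TCF7L1, the TCF member that acts mainly as a repressor in mouse embryonic stem cells, measured 10.7, 10.1 and 9.58 FPKM in siOGA, 10.3, 10.4 and 10.3 in siP300+OGA, 12.7, 11.8 and 11.8 in siP300, and 3.64, 3.90 and 3.90 in siNC. TCF7L2 averaged 7.18 FPKM in siOGA, 5.33 in siP300+OGA, 6.99 in siP300 and 2.27 in siNC. All 9 libraries of the other groups lay above siNC for both genes. Log2 differences from siNC were 1.21 in siOGA (adjusted p = 3.24e-09), 1.23 in siP300+OGA (adjusted p = 2.89e-09) and 1.44 in siP300 (adjusted p = 4.97e-10) for TCF7L1. For TCF7L2 they were 1.32 in siOGA (adjusted p = 7.14e-08), 0.95 in siP300+OGA (adjusted p = 1.12e-06) and 1.29 in siP300 (adjusted p = 6.59e-08). The corepressors TLE4 and TLE5 also rose in siOGA (0.66, adjusted p = 5.48e-06, and 0.84, adjusted p = 7.13e-07) and in siP300 (1.34, adjusted p = 1.72e-08, and 1.55, adjusted p = 4.7e-09). Within the TCF/LEF family, TCF7 therefore fell in siOGA and in siP300 while TCF7L1 and TCF7L2 rose in both. The fourth member, LEF1, was called higher in siOGA by limma-voom (0.91, adjusted p = 0.0168) and did not pass in siP300 (-0.30, adjusted p = 0.505).

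**Figure D4:**
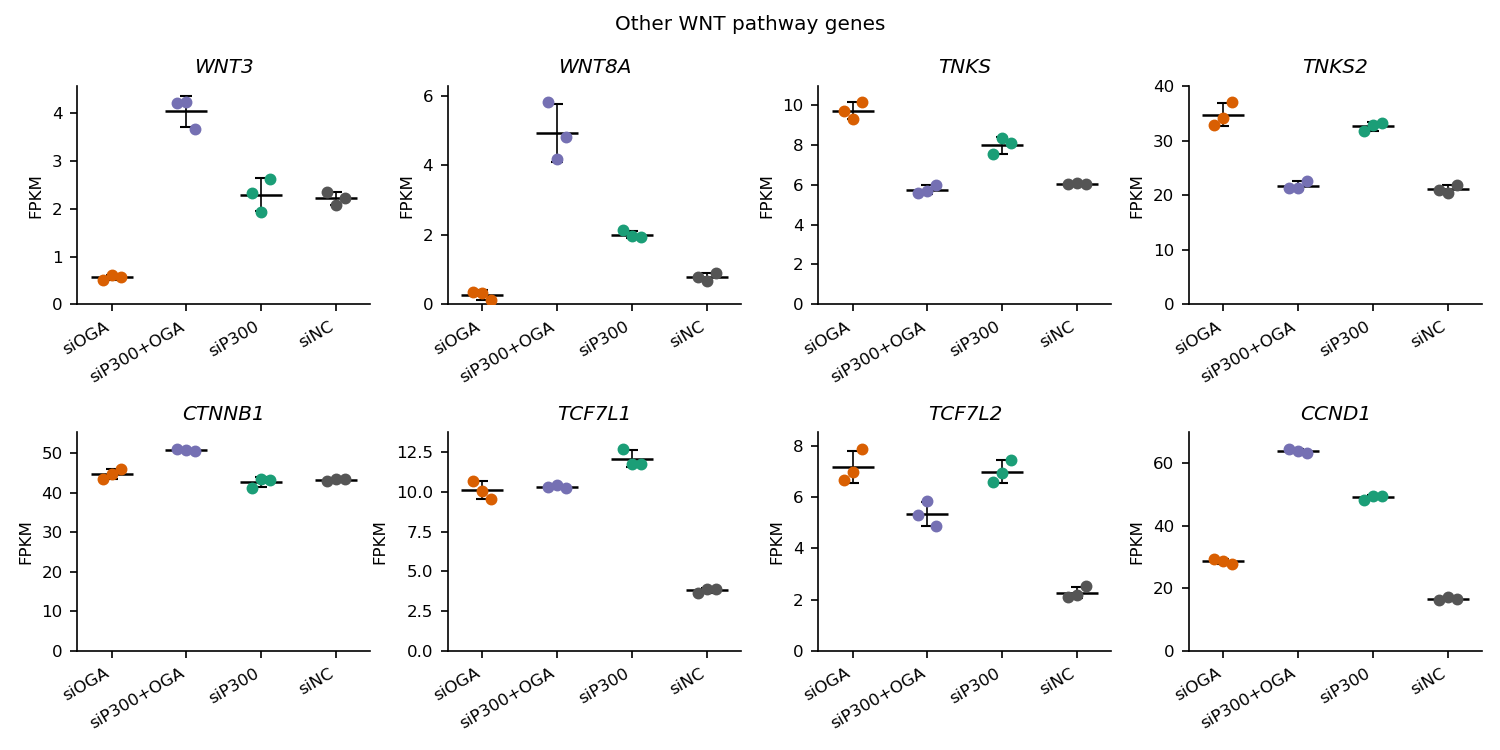
FPKM of 8 other pathway genes (y axis, linear from 0, scaled to each gene) in the siOGA, siP300+OGA, siP300 and siNC groups (x axis). Points are libraries, the horizontal line is the mean of 3 and the bar is ± SD; WNT3 and WNT8A are lowest in siOGA and highest in siP300+OGA, the tankyrases are higher in siOGA and siP300 than in the other two groups, and TCF7L1, TCF7L2 and CCND1 are lowest in siNC.

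Further genes reported as WNT targets in other tissues moved in both directions. Of 19 such genes 11 were tested. Of these, 3 rose and 7 fell in siOGA against siNC, and 4 rose and 5 fell in siP300 against siNC. Compared with siP300, 6 were higher and 2 lower in siP300+OGA. Over all tested genes, the shares called higher and lower were 34.0% and 32.9% in the first comparison. They were 30.2% and 35.7% in the second and 27.0% and 21.2% in the third. CCND1, cyclin D1, measured 29.4, 28.8 and 27.8 FPKM in siOGA, 64.6, 63.9 and 63.1 in siP300+OGA, 48.2, 49.3 and 49.5 in siP300, and 16.3, 17.1 and 16.6 in siNC. It rose in siOGA (0.75, adjusted p = 3.64e-09) and in siP300 (1.50, adjusted p = 1.49e-11). MYC rose in siOGA (1.17, adjusted p = 2.1e-07) and in siP300 (0.71, adjusted p = 9.92e-06), and JUN rose in siP300 to 36.1 FPKM, against 3.69 in siNC (2.99, adjusted p = 3.15e-11). JUN also rose in siOGA (0.87, adjusted p = 4.6e-07). SP8, the SP-family relative of SP5, averaged 12.6 FPKM in siOGA, 9.84 in siP300+OGA, 6.61 in siP300 and 16.8 in siNC. It fell in siP300 (-1.23, adjusted p = 2.07e-08) and, unlike SP5, was lower in siP300+OGA than in siNC (-0.72, adjusted p = 2.26e-06). CDX4, a homeobox gene of posterior patterning, fell in siOGA (-0.82, adjusted p = 0.000952) and in siP300 (-1.49, adjusted p = 9.94e-06).

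Markers of other cells were read beside these values. The primitive streak gene MIXL1, also a reported target, averaged 0.585 FPKM in siOGA, 5.38 in siP300+OGA, 4.29 in siP300 and 0.858 in siNC, while TBXT, the defining streak marker, averaged 0.0385 FPKM in siOGA, 0.246 in siP300+OGA, 0.251 in siP300 and 0.0507 in siNC. The summed level of 5 streak and mesoderm markers was 0.959 to 1.29 FPKM in siOGA, 5.55 to 6.89 in siP300+OGA, 4.97 to 5.32 in siP300 and 1.18 to 1.28 in siNC. Of 6 fibroblast markers, 5 averaged under 1 FPKM in every group, and the sixth, COL1A1, averaged 3.27 FPKM in siOGA, 4.61 in siP300+OGA, 17.5 in siP300 and 1.86 in siNC. The sum of 3 neuroectoderm markers was 17.2 to 19.8 FPKM in siOGA, 59.1 to 62.0 in siP300+OGA, 104 to 110.2 in siP300 and 19.8 to 21.7 in siNC. Nearly all of it was NES, nestin, which averaged 108 FPKM in siP300 against 20.5 in siNC (2.34, adjusted p = 4.91e-11) and was lower in siP300+OGA than in siP300 (-0.83, adjusted p = 5.1e-07), the opposite directions to AXIN2, TCF7, ZNRF3 and SP5, while the other 2 of that list averaged under 1 FPKM in every group. The sum of 4 trophectoderm markers was 1.42 to 1.86 FPKM in siOGA, 1.28 to 1.305 in siP300+OGA, 3.81 to 3.98 in siP300 and 0.918 to 1.10 in siNC. In siP300 its leading gene was GATA3, at 2.21 FPKM against 0.301 FPKM in siNC. Sums of 4 hypoblast and endoderm markers reached at most 2.99 FPKM and those of 3 amnion markers at most 0.857 FPKM. The part of such cells, of feeder RNA and of the shift in naive and primed markers in the target values was not tested.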

How the data were processed

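RNA-seq was measured in 12 libraries, 3 in each of 4 groups, which were taken from the sample names. The deposited values are FPKM per gene, made by the authors. Per the submitters' processing notes, the tools named include cutadapt 1.9, HISAT2 2.0.4, UMI-tools and StringTie 1.3.4d, with build GRCh38. Per the labels' protocols, libraries were poly(A)-selected, strand-marked and carried molecular identifiers. The FPKM steps gave whole reads for 100% of values within 0.01 of a whole number, and 1 read in a gene of 1 kb was worth 0.0518 to 0.0647 FPKM. The sources used here do not say whether these are reads or fragments.

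The test covered 13166 of 62753 genes, those averaging 1 FPKM or more over the libraries. It was limma 3.58.1 (R 4.3.3), applied to log2(FPKM + 1) and using an intensity trend, 1 fit of the 4 groups (8 residual degrees of freedom), Benjamini-Hochberg adjustment over all tested genes and a threshold of 0.05. A fold on this scale understates the change of low genes. Low members were tested with limma-voom on recovered reads (at least 10 reads in at least 3 libraries, 19308 genes). An exact permutation test of 3 libraries against 3 cannot go below p = 0.1. Alternatives covered the pseudocount, the minimum, scaling, regional shifts, the fit and each library left out. The 10 members, the pathway lists and the markers were chosen with earlier results of these data known. Named pathway genes are CTNNB1, TCF7L1, TCF7L2, the tankyrases, AXIN1, APC, GSK3B and, in each list, up to 3 genes with the largest called difference in each knockdown, with a mean of at least 2 FPKM in the higher group and no overlap. SKP1 (an overlapping gene), SP8 (a relative of a member) and WNT5A (a ligand under the minimum) are also named, after their values were seen. The same holds for the markers SOX2, NANOG, TBXT, COL1A1, NES and GATA3. Same-numbered libraries of different groups did not deviate together (correlations of -0.06 to 0.13 over 18 pairs), so replicate numbers were not taken as pairs. The limma test on log2(FPKM + 1) was checked on simulated data for siOGA against siNC only. That simulation held far fewer changed genes than were called here, and limma-voom was not checked in this way.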

Additional observations from a re-analysis of the deposited data

How the results depend on the processing

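Members called ranged from 2 to 4 in siOGA against siNC and from 3 to 4 in siP300+OGA against siNC when each library was left out, and stayed at 4 in siP300 against siNC, 4 in siP300+OGA against siP300 and 3 in siOGA against siP300. With no expression minimum, or a minimum of 0.1 FPKM, members called were 5 in siOGA against siNC, 6 in siP300 against siNC, 6 in siP300+OGA against siP300, 4 in siP300+OGA against siNC and 7 in siOGA against siP300. Beside these, the genes called at 0.1 FPKM were 11269, 11238, 7268, 9703 and 13086 of 24638 in that order of comparisons, and with no minimum 10953, 11129, 6832, 9162 and 13142 of 40838. With limma-voom, members called were 8 in siOGA against siNC, 7 in siP300 against siNC and 6 in siP300+OGA against siP300. They were 5 in siP300+OGA against siNC and 7 in siOGA against siP300. In that order, limma-voom called 11832, 11877, 8265, 10563 and 13267 of 19308 genes. With a minimum of 5 FPKM only 2 members remained to be tested, and 2 were called in siP300 against siNC, 2 in siP300+OGA against siP300 and 1 in siP300+OGA against siNC. That minimum tested 7018 genes and called 5117 in siOGA against siNC, 5172 in siP300 against siNC, 4139 in siP300+OGA against siP300, 4784 in siP300+OGA against siNC and 5585 in siOGA against siP300. With the replicate number as a block (replicate block), 4, 4, 4, 3 and 3 members were called in siOGA against siNC, siP300 against siNC, siP300+OGA against siP300, siP300+OGA against siNC and siOGA against siP300, and 8855 genes in the first; among the 4 tested members the 1 call it changed was ZNRF3 in siOGA against siNC.

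Signs turned only near 0 for members. RNF43 in siP300+OGA against siP300 was -0.0020 at a minimum of 0.1 FPKM and with none, -0.050 without siP300+OGA replicate 1, -0.093 without siP300 replicate 1 and -0.030 without siP300 replicate 2; over all single libraries left out it ran from -0.093 to 0.13. NOTUM in siP300+OGA against siNC was -0.027 without siP300+OGA replicate 3 and at most 0.38 with any other library left out. CTNNB1 in siP300 against siNC was 0.027 with median-ratio scaling, 0.10 with quantile normalization, 0.19 with regional medians removed and 0.0048 without siP300 replicate 1, and ran from -0.032 to that value over the libraries left out. It was -0.045 in siOGA against siNC and -0.15 in siOGA against siP300 with quantile normalization, and -0.060 in siOGA against siP300 with regional medians removed. The causes were not tested. Depth limits LEF1, LGR5, DKK1, SP5 and NOTUM most, since their values rest on at most 96 reads a library.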

Other observations

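Of 13 genes of ligand secretion and reception 8 were tested. Of these, 5 rose and 1 fell in siOGA against siNC, where 34.0% of all tested genes were called higher and 32.9% lower. In siP300 against siNC 4 rose and 4 fell, where 30.2% were called higher and 35.7% lower. Compared directly, 5 were higher and 2 lower in siOGA than in siP300, where 39.3% of all tested genes were called higher and 34.8% lower. LRP6, a WNT co-receptor, averaged 32.9 FPKM in siOGA, 15.2 in siP300+OGA, 14.2 in siP300 and 23.6 in siNC, and was higher in siOGA than in siP300 by a limma log2 difference of 1.15 (adjusted p = 4.05e-09). LRP5, the other co-receptor, rose against siNC in siOGA (0.41, adjusted p = 0.000248) and in siP300 (0.44, adjusted p = 0.000149). PORCN, the enzyme that attaches the lipid to WNT ligands, averaged 7.73 FPKM in siOGA, 2.79 in siP300+OGA, 2.54 in siP300 and 6.55 in siNC (siOGA against siP300 1.31, adjusted p = 6.73e-09). LGR4, an R-spondin receptor and relative of LGR5, averaged 44.9 FPKM in siOGA, 28.9 in siP300+OGA, 25.1 in siP300 and 58.3 in siNC, far above the few reads of LGR5. WLS, which carries WNT ligands to the surface, rose in siP300 (1.39, adjusted p = 5.07e-08). WLS passed the minimum only through siP300, where it measured 2.88, 3.06 and 2.66 FPKM. Its tests with that group, and its place in the counts there, are not independent of the filter. ROR1, a receptor of non-canonical WNT signalling, rose in siOGA (1.37, adjusted p = 8.64e-09).

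Of 12 secreted and membrane inhibitors 4 were tested. Of these, 2 rose and 1 fell in siOGA against siNC, where 34.0% of all tested genes were called higher and 32.9% lower. In siP300 against siNC 1 rose and 2 fell, where 30.2% were called higher and 35.7% lower. The DKK co-receptors KREMEN1 and KREMEN2 moved in opposite directions. KREMEN1 averaged 6.49 FPKM in siOGA, 2.21 in siP300+OGA, 2.15 in siP300 and 3.34 in siNC. KREMEN2 averaged 3.67 FPKM in siOGA, 13.4 in siP300+OGA, 12.8 in siP300 and 8.62 in siNC. KREMEN1 rose in siOGA (0.79, adjusted p = 1.84e-06) and fell in siP300 (-0.46, adjusted p = 0.000118), and KREMEN2 fell in siOGA (-1.04, adjusted p = 3.44e-07) and rose in siP300 (0.52, adjusted p = 7.65e-05). TRABD2A, another gene of this list, rose in siOGA (0.29, adjusted p = 0.0128) and fell in siP300 (-0.79, adjusted p = 1.09e-05).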
